A study of Homo sapiens with 12 samples.

Results

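The 4 control libraries of a single hepatoma cell line were compared with each other, controls 3 and 4 against controls 1 and 2. They are 4 of the 12 RNA-seq libraries of the series and were taken by their sample titles. All 12 are of PLC/PRF/5, a line of human hepatoma cells that the labels describe as epithelial. The controls are given as wild type (WT). The other 8 libraries are from lines KO1 and KO2, in which HKDC1 was knocked out, and from the rescue of each line (KO1_RES and KO2_RES), in which HKDC1 was put back, with 2 libraries a line and state. HKDC1 is a hexokinase domain protein, related to the enzymes that phosphorylate glucose. The labels do not say whether a line is a clone or a guide, which part of HKDC1 was changed, whether each library had a culture of its own, or how much oxygen the cells had (hypoxia is in the series title). The p-values thus rest on the spread between these libraries alone, and this spread may be technical.

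The labels give the 4 controls as a single group. Their division into 2 pairs was noticed in earlier results of these data, so the calls below are not independent evidence that the pairs differ. Each call describes the size of a difference against a spread estimated jointly within 6 groups (the 2 control pairs, KO1, KO2 and their rescues). The common biological variation was 18% in that fit and 11% with the 4 controls alone. The division is large compared with the spread within pairs. Controls 1 and 2 differed from each other by at least 1 on the log2 CPM scale in 649 of 20559 genes tested (3.16%), and controls 3 and 4 in 1362 (6.62%). Across the pairs the number was 3052 to 3375 (14.8 to 16.4%). From controls 1 and 2 to single KO libraries it was 3557 to 4717, and from controls 3 and 4 to single KO libraries 3016 to 4342, so the control pairs lay about as far apart as some control and knockout libraries. The controls held between 57333288 and 71853616 counts on genes. Reads mapping to several places made up 11.6% and 10.4% of controls 1 and 2, 7.3% and 7.99% of controls 3 and 4, and 7.21 to 8.73% of the KO libraries. This share moves with the pairs, and its part in the results was not tested.

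Hepatocytes make most of the proteins of blood plasma: albumin, transport proteins, protease inhibitors, clotting and complement factors and the apolipoproteins of lipoproteins. They also carry out bile acid, drug, amino acid and urea metabolism, under transcription factors such as HNF4A, FOXA proteins and the bile acid receptor NR1H4. Biliary cells line the bile ducts and are known by keratins KRT7 and KRT19 and by SOX9. Both cell types arise from a common progenitor, and hepatoma cells can carry genes of either.

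HKDC1 itself did not separate the control pairs. It stood at 157 and 154 CPM (read counts scaled to library size) in controls 1 and 2, against 183 and 124 CPM in controls 3 and 4. The log2 fold change was -0.02 (SE 0.27, adjusted p = 0.98 by edgeR's quasi-likelihood test with Benjamini-Hochberg adjustment), and the pairs overlapped. The line labelled KO1 held 153 and 146 CPM, the line labelled KO2 91.4 and 49.2 CPM, and the rescues between 508 and 1544 CPM. Against controls 1 and 2 the log2 fold change was -0.05 in KO1 (adjusted p = 0.907) and -1.15 in KO2 (adjusted p = 0.0134), so HKDC1 RNA was within the control range in KO1.

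The 4 lists with the lowest medians between the pairs were those of secreted liver proteins, so stretches of their promoters are shown. Sequences are from RefSeq on GRCh38.p14, 5′ to 3′ in the direction of the gene, and capitals mark matches to short words bound by liver factors: HNF4A (CAAAGTCCA) and FOXA (TGTTTAC), on either strand. The first 5 genes below were lower in controls 3 and 4 and the last 2 did not pass the test.
AHSG (chr3:186612861-186612909, plus strand, HNF4A): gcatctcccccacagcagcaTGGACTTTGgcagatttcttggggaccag
APOA2 (chr1:161223644-161223690, minus strand, FOXA): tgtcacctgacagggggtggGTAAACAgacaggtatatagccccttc
KNG1 (chr3:186717109-186717142, plus strand, FOXA): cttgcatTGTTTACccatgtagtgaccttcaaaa
SERPINA6 (chr14:94323460-94323506, minus strand, FOXA): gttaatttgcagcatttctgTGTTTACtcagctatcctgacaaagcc
CPN1 (chr10:100081909-100081955, minus strand, FOXA): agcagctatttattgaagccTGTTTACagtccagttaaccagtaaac
F10 (chr13:113122777-113122825, plus strand, HNF4A): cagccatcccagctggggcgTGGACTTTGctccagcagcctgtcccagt
PROZ (chr13:113158594-113158642, plus strand, HNF4A): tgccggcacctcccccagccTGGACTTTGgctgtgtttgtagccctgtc

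The 4 lists of secreted liver proteins (plasma proteins, apolipoproteins, clotting, complement) held 86 tested genes, and 61 matched a promoter, taken from 250 bases before to 50 after the first listed start. The FOXA word was in 7 of these 61 (11.5%), against 2.35% of the 12754 promoters of tested genes and 3.41% of all 27305 promoters. The HNF4A word was in 3 of the 61 (4.92%), against 0.345% of the promoters of tested genes and 0.359% of all promoters. A match describes these letters in this window and is neither a binding site nor a cause.

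Across all genes, 2488 of 20559 (12.1%) were called at an adjusted p under 0.05 by edgeR. Of these, 1386 (6.74% of genes tested) were higher in controls 3 and 4 and 1102 (5.36%) lower, with a median log2 fold change of 0.01 over all genes. A log2 change of at least 1 was found in 806 genes of the first kind and 711 of the second, and of at least 3 in 285 and 177. Every control counted: without control 1, 2, 3 or 4 the calls numbered 1054, 1026, 1326 and 1224, and 857 of the 2488 (34.4%) were called in all 4 of these fits. Genes named below kept their call in all 4 unless the text says otherwise.

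The plasma proteins of the hepatocyte were mostly lower in controls 3 and 4. Of 29 tested, 19 were lower and 1 higher, with a median log2 fold change of -2.23, and 15 of the 20 calls were made in every fit without 1 control. Summed over the list, the level was 11556 and 11658 CPM in controls 1 and 2 and 3705 and 3821 CPM in controls 3 and 4. In bulk RNA, fewer cells of a type and less RNA per cell cannot be told apart.

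Albumin (ALB), the main protein of plasma, stood at 907 and 823 CPM in controls 1 and 2, against 23.1 and 28.2 CPM in controls 3 and 4. The pairs were far apart and did not overlap, a 33.7-fold ratio of means (log2 -5.08, SE 0.21, adjusted p = 2.75e-07). KO1 had 28.1 and 24.8 CPM and KO2 15.8 and 20.7 CPM, close to controls 3 and 4, and the rescues had 49.4 and 63 CPM (KO1_RES) and 20.8 and 25 CPM (KO2_RES). The log2 difference of KO1 from controls 3 and 4 was 0.04 (adjusted p = 0.897) and that of KO2 was -0.49 (adjusted p = 0.111).

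Other carriers and inhibitors were lower too. Transferrin (TF), which carries iron, was at 3195 and 3243 CPM in controls 1 and 2, against 498 and 543 CPM in controls 3 and 4 (log2 -2.63, SE 0.31, adjusted p = 0.000318). Antitrypsin (SERPINA1), an inhibitor of neutrophil elastase, was at 2414 and 2335 CPM against 310 and 287 CPM (log2 -2.99, SE 0.14, adjusted p = 6.44e-07). Both knockout lines held TF and SERPINA1 above controls 3 and 4 and below controls 1 and 2, with 739 and 892 CPM of SERPINA1 in KO1 and 675 and 709 CPM in KO2.
Hemopexin (HPX), which binds heme, was at 134 and 132 CPM against 3.91 and 4.4 CPM (log2 -5.00, SE 0.18, adjusted p = 1.57e-07). The retinol carrier RBP4 was at 167 and 171 CPM against 12.6 and 19.6 CPM (log2 -3.39, SE 0.29, adjusted p = 3.52e-05). For RBP4 the knockout lines lay on different sides, with 85.9 and 94.8 CPM in KO1 and 5.54 and 6.69 CPM in KO2. The acute-phase protein ORM1, whose reads its near copy ORM2 may share, likewise stood at 54.6 and 51.2 CPM against 1.42 and 2.15 CPM, with 38.4 and 53.3 CPM in KO1 and 1.31 and 2.72 CPM in KO2.
Of the other genes whose promoters are shown, the mineral-binding fetuin AHSG was at 22.7 and 21.5 against 0.949 and 0.78 CPM, the cortisol carrier SERPINA6 at 179 and 183 against 65.7 and 56.7 CPM, and the carboxypeptidase chain CPN1 at 54.5 and 57.5 against 29.2 and 26.5 CPM.
Not every plasma protein followed. Angiotensinogen (AGT), the precursor of angiotensin, stood at 922 and 970 CPM in controls 1 and 2, against 1046 and 1007 CPM in controls 3 and 4 (log2 0.12, SE 0.17, adjusted p = 0.744). The pentraxin APCS was the 1 member called higher, at 0.125 and 0.0292 CPM against 0.712 and 0.55 CPM. Its adjusted p was 0.0206, and without control 2, 3 or 4 it was no longer called (adjusted p up to 0.19).

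Apolipoproteins and lipoprotein assembly genes showed 10 of 16 tested lower and 0 higher, with a median log2 fold change of -1.54, and 8 of the 10 were called whichever control was left out. APOA1, the main protein of high-density lipoprotein, was at 223 and 212 CPM in controls 1 and 2, against 10.4 and 10.4 CPM in controls 3 and 4 (log2 -4.39, SE 0.17, adjusted p = 1.57e-07). APOA2 was at 1158 and 1254 CPM against 75.4 and 107 CPM, and MTTP, which loads lipid onto apolipoprotein B, at 155 and 155 CPM against 52 and 64.3 CPM. The pairs did not overlap in any of the 3. Apolipoprotein B itself (APOB), the protein of low-density lipoprotein, was not called, at 6329 and 5574 CPM against 4821 and 6897 CPM (log2 -0.02, SE 0.56, adjusted p = 0.989). It stood at 10432 and 21509 CPM in KO1 and at 20.2 and 47.8 CPM in KO2, so the knockout lines spanned a far wider range than the controls.

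The clotting list had 18 of 22 tested genes lower and 0 higher, median -2.01, with 12 of the 18 called whichever control was left out. Its summed level was 19572 and 18945 CPM in controls 1 and 2 and 7182 and 6463 CPM in controls 3 and 4. Kininogen (KNG1), the precursor of bradykinin, was at 210 and 223 CPM against 11.6 and 15.1 CPM (log2 -4.02, SE 0.45, adjusted p = 0.000249). The fibrinogen chain FGG was at 4252 and 4156 CPM against 1682 and 1577 CPM, the thrombin inhibitor SERPINC1 at 5.82 and 5.8 CPM against 0.203 and 0.497 CPM, and F13B, a carrier of clotting factor XIII, at 32.6 and 32.4 against 8.23 and 7.71 CPM. All 3 were called lower without overlap. The other fibrinogen chains were at 6165 and 5879 against 1646 and 1373 CPM for FGB (adjusted p = 0.0086, and 0.0787 at the most without control 3 or 4) and at 7984 and 7679 against 3493 and 3084 CPM for FGA (adjusted p = 0.0513, not called).

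Complement genes had 11 of 19 tested lower and 2 higher, median -2.48, and 6 of the 13 calls were made whichever control was left out. CFI, a protease that cleaves C3b, was at 91.1 and 91.6 CPM in controls 1 and 2, against 9.57 and 14.5 CPM in controls 3 and 4 (log2 -2.92, SE 0.28, adjusted p = 8.69e-05). C4BPA and C4BPB, the chains of the C4b-binding protein, were at 8.4 and 7.98 against 0.102 and 0.0887 CPM and at 13.2 and 12.7 against 0.44 and 0.372 CPM. The central component C3 stood at 722 and 715 against 748 and 777 CPM (adjusted p = 0.819), and vitronectin (VTN) at 744 and 749 against 726 and 645 CPM (adjusted p = 0.658). Neither was called. Summed over the list, the level was 2807 and 2885 CPM in controls 1 and 2 and 2306 and 2245 CPM in controls 3 and 4.

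**Figure D1:**
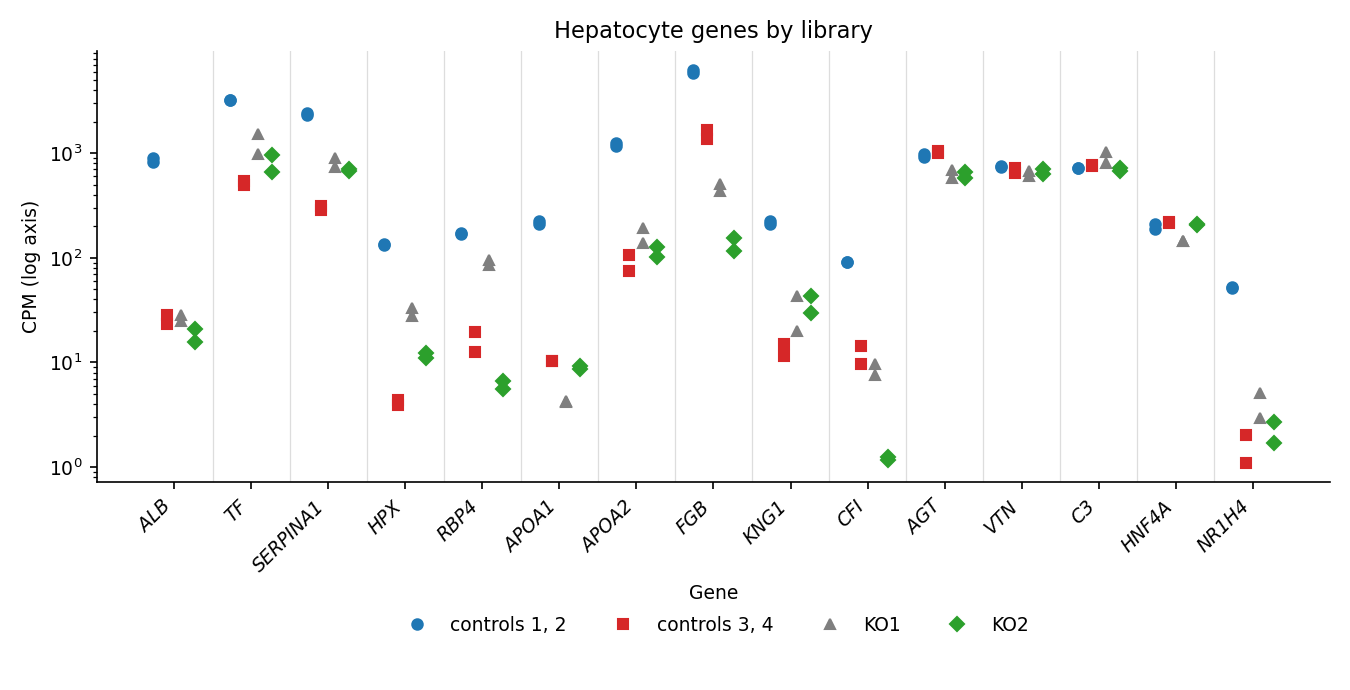
Levels of 15 hepatocyte genes in each library (CPM, log axis), with circles for controls 1 and 2, squares for controls 3 and 4, triangles for KO1 and diamonds for KO2. ALB, TF, SERPINA1, HPX, APOA1 and KNG1 have all 4 knockout libraries below controls 1 and 2, while AGT, VTN, C3 and HNF4A were not called between the control pairs.

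Of 23 transcription factors of the hepatocyte tested, 5 were lower and 1 higher, with a median log2 fold change of -0.03, and only NR1H4 kept its call whichever control was left out. HNF4A stood at 210 and 190 CPM in controls 1 and 2, against 216 and 221 CPM in controls 3 and 4 (log2 0.13, SE 0.12, adjusted p = 0.592). FOXA1, FOXA2 and FOXA3 had log2 differences of 0.35, -0.35 and -0.19 and were not called. The bile acid receptor NR1H4 was at 52.2 and 51.1 CPM against 1.1 and 2.04 CPM (log2 -5.04, SE 0.68, adjusted p = 0.00078). All 4 knockout libraries held NR1H4 at 1.69 to 5.13 CPM, near controls 3 and 4. CEBPA was at 1.74 and 2.28 against 0.271 and 0.603 CPM (adjusted p = 0.00686), a call that was lost without control 2 or 3 (up to 0.0629).

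Metabolic genes of the hepatocyte were lower in part. Of 34 tested P450 and conjugating enzymes, 10 were lower and 3 higher (median -0.64). The sulfotransferase SULT2A1 was at 17.2 and 13.7 CPM in controls 1 and 2, against 0.508 and 0.532 CPM in controls 3 and 4. In KO2 it stood at 9.8 and 9.61 CPM, and in KO1 at 0.256 and 0.28 CPM, so the lines lay on opposite sides. Going the other way, the sterol hydroxylase CYP27A1 was at 0.0537 and 0.0584 CPM against 4.2 and 5.04 CPM, and CYP2B6, which metabolises drugs, at 0.0358 and 0 against 2.71 and 5.48 CPM.
Among 31 urea cycle and amino acid genes, 11 were lower and 3 higher (median -0.60). Arginase (ARG1), the last step of the urea cycle, was at 6.14 and 5.86 CPM against 0.0339 and 0 CPM. The argininosuccinate lyase ASL was at 98.3 and 94.8 against 42.8 and 46.7 CPM (log2 -1.11, SE 0.11, adjusted p = 0.000121). The mitochondrial ornithine carrier SLC25A15 was higher, at 52.7 and 51.3 against 136 and 132 CPM. CPS1, the entry enzyme of the cycle, stood at 5456 and 5184 against 3775 and 4090 CPM and was not called (adjusted p = 0.138).
Hepatic transporters had 5 of 18 lower and 2 higher (median -0.49), among them the manganese exporter SLC30A10 at 24.8 and 21.8 against 1.44 and 1.54 CPM. In KO1 that gene stood at 31.2 and 33.5 CPM and in KO2 at 1.88 and 1.39 CPM. Of 13 glucose and fructose genes 3 were lower and 0 higher (median -0.82), and all 3 calls were lost in a fit without 1 control. Of 13 oncofetal genes 3 were higher and 2 lower (median 0.07). The cell-surface glypican GPC3 was at 287 and 283 against 78.4 and 91.1 CPM, while HMGA2, a chromatin protein of fetal tissue, was at 20.5 and 20 against 71.6 and 69.4 CPM.

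The biliary and progenitor genes moved in both directions. Of 26 tested, 8 were higher and 4 lower in controls 3 and 4, with a median log2 fold change of 0.38, and 10 of the 12 calls were made whichever control was left out. Keratin 19 (KRT19), a marker of bile duct cells, stood at 0.501 and 0.657 CPM in controls 1 and 2, against 38.6 and 34.2 CPM in controls 3 and 4 (log2 5.96, SE 0.37, adjusted p = 4.75e-06). KO1 held 8.88 and 7.02 CPM, between the pairs, and KO2 held 230 and 194 CPM, beyond controls 3 and 4.
The integrin chain ITGB4, which anchors epithelia to the basement membrane, was at 3.2 and 3.71 against 78.3 and 158 CPM (log2 5.09, SE 0.56, adjusted p = 0.000228). PROM1, a membrane protein of progenitor cells, was at 1.43 and 1.97 against 45.3 and 34.7 CPM (log2 4.55, SE 0.22, adjusted p = 6.5e-07). For PROM1, KO1 was nearer controls 3 and 4 (26.3 and 24.6 CPM) but called lower than them (log2 -0.65). KO2 was below controls 1 and 2 (0.405 and 0.448 CPM).
SOX9, a transcription factor of bile duct and progenitor cells, was at 5.69 and 4.95 against 15.5 and 16.5 CPM. The trefoil peptide TFF1 was at 1.04 and 1.37 against 7.56 and 10.7 CPM, and the RNA-binding protein BICC1 at 52.9 and 54.1 against 145 and 125 CPM. These 3 were called higher without overlap. The 4 genes called lower were KRT23, EPCAM, SPP1 (osteopontin) and SSTR2. KRT23 was at 62.7 and 64.6 against 13.1 and 17.3 CPM, and EPCAM at 4.62 and 3.7 against 1.61 and 1.31 CPM. SPP1 was at 4.28 and 3.36 against 1.05 and 0.727 CPM, and SSTR2 at 9.92 and 8.66 against 4.2 and 3.83 CPM. Both knockout lines held EPCAM above all 4 controls, at 18.4 and 14.9 CPM in KO1 and 37.9 and 35.7 CPM in KO2.
KRT7, the other duct keratin, was at 2.74 and 2.79 against 2.08 and 3.16 CPM and was not called (adjusted p = 0.928), nor was HES1, a target of Notch, at 137 and 133 against 145 and 145 CPM (adjusted p = 0.726). The chloride channel CFTR was at 2.31 and 1.71 against 7.69 and 5.05 CPM (adjusted p = 0.00306, and 0.0516 without control 2). Its level in KO1 was 309 and 283 CPM and in KO2 27 and 21.2 CPM, both above every control. Summed over the list, biliary genes stood at 1807 and 1768 CPM in controls 1 and 2, against 2140 and 2030 CPM in controls 3 and 4.

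**Figure D2:**
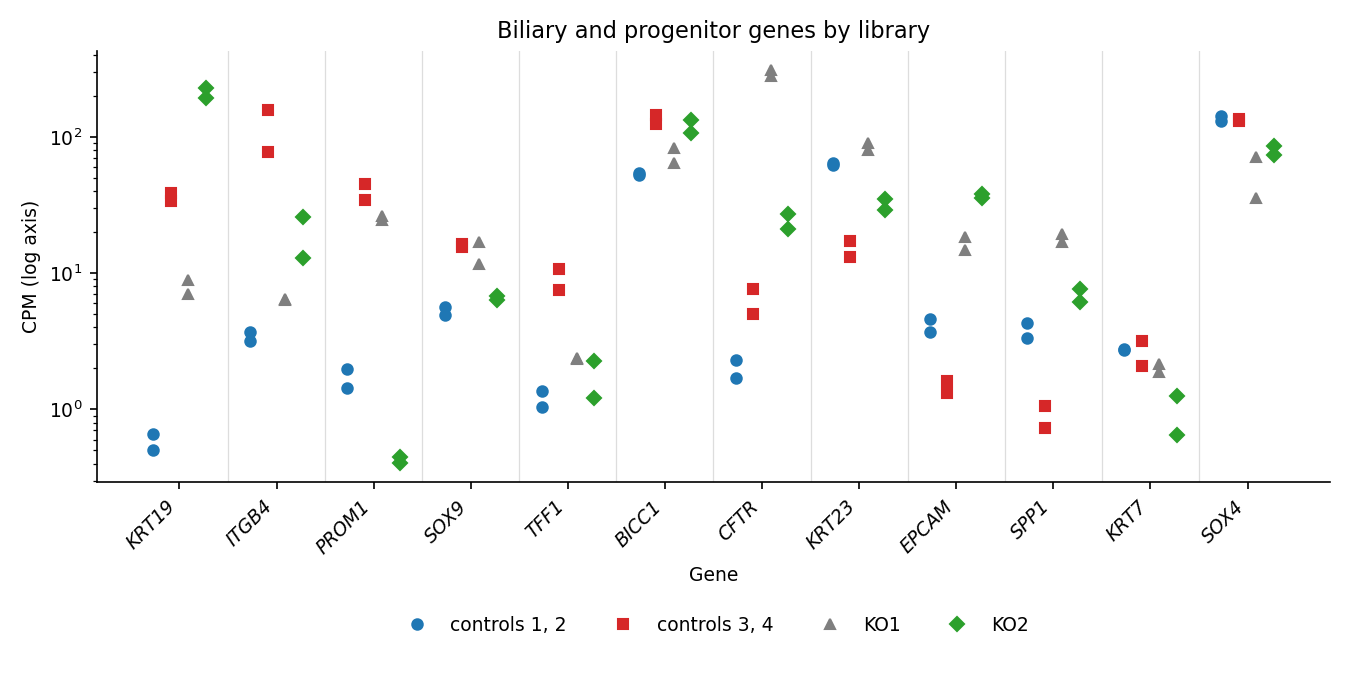
Levels of 12 biliary and progenitor genes in each library (CPM, log axis), with the same symbols as for the hepatocyte genes. KRT19, ITGB4, PROM1, SOX9, TFF1, BICC1 and CFTR are higher in controls 3 and 4, KRT23, EPCAM and SPP1 are lower, and KRT7 and SOX4 were not called.

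The epithelial keratin KRT8 stood at 1886 and 1776 CPM in controls 1 and 2, against 2400 and 2116 CPM in controls 3 and 4, and was not called (adjusted p = 0.445). Of 27 junction and epithelial genes, 5 were higher in controls 3 and 4 and 0 lower, with a median of 0.30. The desmosomal cadherin DSC2 was at 23.2 and 25.8 against 71.8 and 63.8 CPM, and plakoglobin (JUP) at 105 and 108 against 208 and 259 CPM. Both knockout lines had DSC2 at 0.0184 to 0.144 CPM, below every control. E-cadherin (CDH1) overlapped between the pairs, at 87.9 and 98.9 against 71.5 and 98.7 CPM.
Mesenchymal genes had 4 of 20 higher and 4 lower (median -0.20), and only 2 of the 8 calls were made whichever control was left out. The membrane protease MMP14 was at 0.716 and 1.21 against 110 and 109 CPM (log2 6.81, SE 0.30, adjusted p = 4.24e-07), with 6.5 and 10.1 CPM in KO1 and 58 and 71.1 CPM in KO2. The matrix protein TGFBI was lower, at 1430 and 1610 against 253 and 295 CPM.
Basement membrane and integrin genes had 10 of 32 higher and 4 lower (median 0.27), with 3 of the 14 calls made whichever control was left out. The collagen receptor chain ITGA2 was at 11.3 and 10.9 against 67.8 and 75.8 CPM (log2 2.70, SE 0.16, adjusted p = 2.41e-06), and the laminin chain LAMA3 at 176 and 165 against 41.5 and 50.5 CPM. Of 28 TGF-beta and activin genes 3 were higher and 1 lower (median 0.12; 1 of the 4 calls whichever control was left out), led by the receptor TGFBR2 at 157 and 146 against 328 and 314 CPM. Of 20 YAP/TAZ targets 4 were higher and 1 lower (median 0.27), the last being the growth factor binder IGFBP3 at 188 and 201 against 22.6 and 32.1 CPM.

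The listed markers of fibroblasts, blood cells and endothelium were low in every control. Outside these lists, the mesenchymal transcription factor TCF21 was at 0.322 and 0.365 CPM in controls 1 and 2, against 86.7 and 91.5 CPM in controls 3 and 4. The fibroblast list (7 of its 10 genes tested, 1 higher, 1 lower) summed to 11.7 and 12.2 CPM in controls 1 and 2 and to 6.84 and 10.5 CPM in controls 3 and 4, with DCN at 0.0339 to 0.0716 CPM. Blood cell markers (5 of 13 tested, 0 higher, 1 lower) summed to 2.44 to 3.02 CPM in the 4 controls, and the leukocyte gene PTPRC stood at 0 to 0.0895 CPM. Endothelial markers (3 of 11 tested, 0 called by edgeR and by DESeq2, 1 at an unadjusted p under 0.05) summed to 0.491 to 2.42 CPM, with CDH5 at 0.288 to 1.74 CPM. The 3 calls in these lists (COL3A1, PDGFRB and LAPTM5) were all lost in fits without 1 control.

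NF-kB and inflammatory genes were higher in controls 3 and 4, with 10 of 24 tested called higher and 0 lower and a median of 0.79, and 3 of the 10 were called whichever control was left out. TNFAIP2 was at 1.45 and 1.93 against 209 and 179 CPM (log2 6.84, SE 0.28, adjusted p = 2.75e-07). The adhesion molecule ICAM1 was at 137 and 148 against 474 and 427 CPM (log2 1.66, SE 0.12, adjusted p = 1.27e-05). For ICAM1 both knockout lines were near controls 3 and 4, at 560 and 536 CPM in KO1 and 420 and 376 CPM in KO2. Not every member was: against controls 3 and 4, 3 of the 24 were higher and 4 lower in KO1. In KO2, 0 were higher and 3 lower. The chemokine CXCL5 was at 24.7 and 18 against 289 and 173 CPM (adjusted p = 0.0139, and up to 0.137 without control 1, 2 or 3), whereas CX3CL1, at 1.95 and 2.61 against 7.49 and 7.22 CPM, kept its call.
Interferon-stimulated genes had 4 of 19 higher and 0 lower (median 0.34; 1 of the 4 calls whichever control was left out), with MX2, which blocks viruses, at 0.107 and 0.0292 against 1.2 and 1.49 CPM. Antigen presentation genes had 1 of 10 higher and 1 lower (median -0.09). The higher one was CD74, the invariant chain, at 0.0179 and 0.0292 against 1 and 1.01 CPM.

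The mitochondrially encoded genes were lower throughout, all 13 of 13 tested, with a median of -1.09, and 9 were called whichever control was left out. MT-CO1, a subunit of cytochrome oxidase, was at 4445 and 4347 CPM in controls 1 and 2, against 2449 and 2263 CPM in controls 3 and 4 (log2 -0.90, SE 0.16, adjusted p = 0.00446). MT-ND4, of complex I, was at 363 and 323 against 143 and 139 CPM. The summed level was 12334 and 11486 CPM in controls 1 and 2, 6270 and 5756 CPM in controls 3 and 4, 6276 and 5442 CPM in KO1 and 4181 and 4379 CPM in KO2. Nuclear copies of these genes can share reads, and the share of reads mapping to several places was higher in controls 1 and 2 as well; its part was not tested. Of the 47 nuclear-encoded respiratory chain genes 0 were called by edgeR (median -0.07), 2 by DESeq2 and 4 at an unadjusted p under 0.05.

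Cholesterol synthesis and uptake genes had 15 of 25 lower and 1 higher (median -0.55), with 7 of the 16 calls made whichever control was left out. HMGCS1, an early enzyme of the pathway, was at 905 and 845 against 441 and 304 CPM. Farnesyl diphosphate synthase (FDPS) was at 547 and 576 against 293 and 315 CPM (log2 -0.89, SE 0.11, adjusted p = 0.000583).
Fatty acid synthesis and storage genes had 1 of 13 higher and 3 lower (median -0.20), and oxidation and uptake genes 3 of 22 higher and 3 lower (median -0.24). The fatty acid translocase CD36 was at 50 and 46.2 against 0.491 and 0.426 CPM (log2 -6.70, SE 0.22, adjusted p = 8.54e-08). The pyruvate dehydrogenase kinase PDK4 was higher, at 112 and 104 against 455 and 484 CPM, while the knockout lines stood at 13.3 to 88.1 CPM.
Hypoxia response genes outside glycolysis had 7 of 22 lower and 1 higher (median -0.49), and 2 of the 8 calls were made whichever control was left out. NDRG1 was at 157 and 158 against 14.2 and 23.7 CPM (log2 -3.06, SE 0.50, adjusted p = 0.00258). The glycoprotein hormone STC2, which is also on the ATF4 list, was at 6.57 and 9.51 against 67.4 and 100 CPM. VEGFA was not called, at 107 and 120 against 85.9 and 113 CPM (adjusted p = 0.636). Glycolysis genes had 1 of 22 higher and 1 lower (median -0.17), and both calls were lost without at least 1 of the controls.

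By edgeR 0 of 20 cell cycle inhibitors and p53 targets (median -0.03), 0 of 12 cytosolic heat shock genes (0.09), 0 of 12 replication-dependent histones (0.32) and 0 of 3 hexokinases (-0.02) were called. By DESeq2 the counts in these 4 lists were 2, 2, 0 and 0, and at an unadjusted p under 0.05 they were 4, 4, 0 and 0. ATF4 stress genes had 4 of 24 higher and 1 lower (median -0.10), NRF2 targets 2 of 20 higher and 1 lower (median -0.04), and endoplasmic reticulum chaperones 0 of 18 higher and 3 lower (median -0.33). Of these calls, 1 of 5, 0 of 3 and 0 of 3 were made whichever control was left out. Of 23 immediate early genes 6 were higher and 0 lower (median 0.41), including the feedback inhibitors of growth factor signalling SPRY2, at 6.18 and 6.49 against 29 and 31.6 CPM, and DUSP6, at 88.1 and 84 against 196 and 228 CPM. Cell cycle genes had 2 of 37 higher and 0 lower, and both calls were lost without at least 1 of the controls. Of the 37, 34 had a positive log2 fold change (median 0.30, against 0.01 over all genes). The proliferation marker MKI67 was at 212 and 170 against 309 and 381 CPM (adjusted p = 0.0107, and up to 0.146 without control 2 or 4).
Wnt/beta-catenin targets had 2 of 19 higher and 4 lower (median 0.12), and most of these calls were lost without at least 1 of the controls. TBX3 was at 151 and 150 against 41.6 and 43.8 CPM and SP5 at 0.143 and 0.102 against 1.15 and 1.22 CPM, both transcription factors. Of 16 liver cancer stem cell markers 5 were higher and 2 lower (median 0.52). The higher ones included PROM1, KRT19, SOX9 and ICAM1, which also stand in the biliary or NF-kB lists, and the lower ones were EPCAM and the efflux pump ABCG2, the latter not without control 4 (adjusted p = 0.0619).

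Cancer-testis antigens, which are normally silent outside the germline, had 9 of 17 higher and 0 lower, with a median of 1.78, and 5 of the 9 were called whichever control was left out. PAGE2 stood at 0 and 0 CPM in controls 1 and 2, against 57.2 and 54.1 CPM in controls 3 and 4, at least 1142-fold higher when 3 counts per library are taken as the floor. Its near copies in the PAGE family can share reads. MAGEA10 was at 8.14 and 7.52 against 33.6 and 29.1 CPM (adjusted p = 7.51e-05) and MAGEC2 at 1.5 and 1.23 against 8.88 and 9.19 CPM. In KO1 the levels of MAGEC2 were 23.2 and 18.9 CPM and in KO2 27.1 and 28.8 CPM, above all 4 controls.
HOX genes, which set position along the body axis, had 10 of 34 lower and 1 higher (median -0.65), with 4 of the 11 calls made whichever control was left out. HOXD8 was at 10.2 and 10.9 against 0.644 and 0.692 CPM (log2 -3.98, SE 0.23, adjusted p = 2.29e-06), HOXD9 at 9.85 and 11.2 against 0.508 and 0.763 CPM, and HOXD13 at 2.09 and 2.18 against 0.0678 and 0.106 CPM. HAGLR, a long noncoding RNA of the same cluster, was at 6.69 and 6.13 against 0.102 and 0.213 CPM. For HOXD8 the levels were 6.66 and 7.11 CPM in KO1 and 12.3 and 13.8 CPM in KO2, nearer controls 1 and 2. Still, KO1 was called lower than controls 1 and 2 for HOXD8 (log2 -0.62), HOXD9 (-1.41), HOXD13 (-1.97) and HAGLR (-2.83). KO2 was called lower than that pair for HOXD9 (-0.66) and HAGLR (-1.58), and not called for HOXD8 (0.30) and HOXD13 (-0.06). Both lines were called higher than controls 3 and 4 for each of these genes. HOXB13 was the higher member, at 0.0179 and 0 against 2.08 and 2.57 CPM, with 8.29 and 10.4 CPM in KO1 and 0.11 and 0.19 CPM in KO2.

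**Figure D3:**
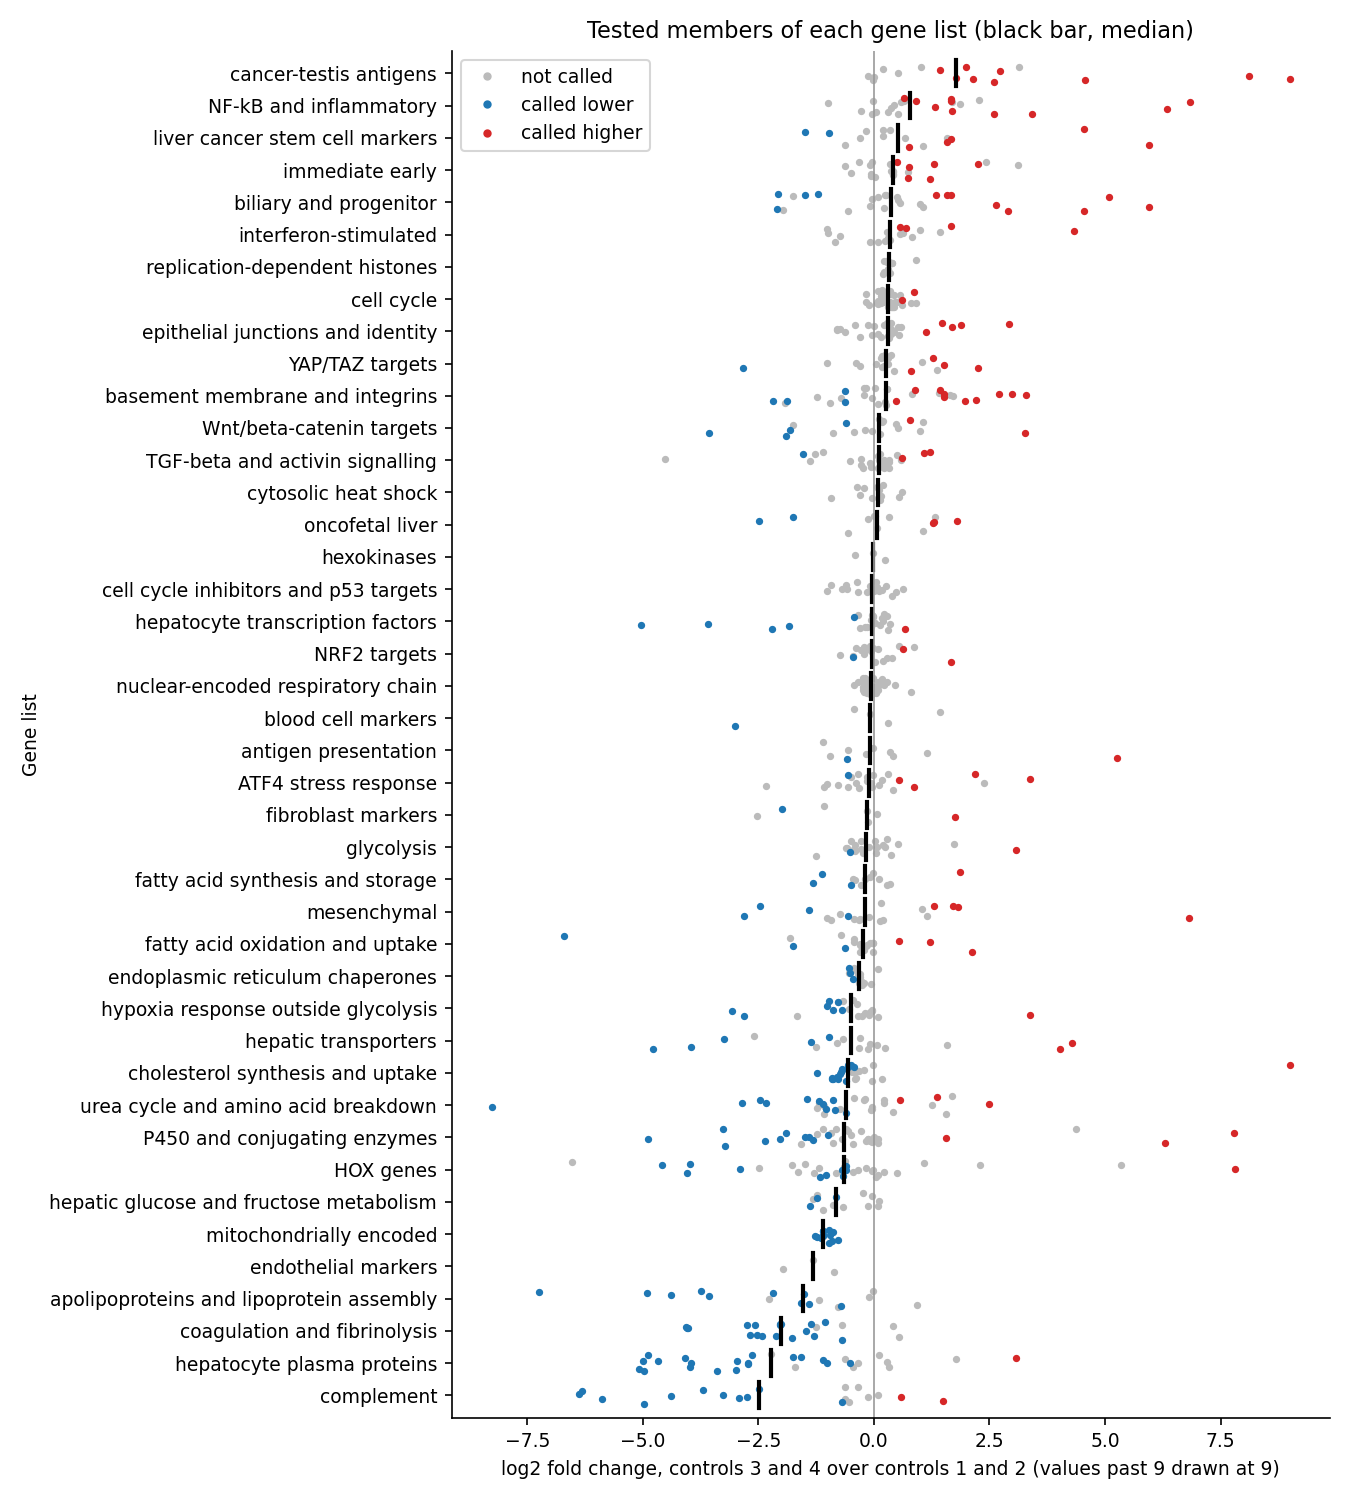
Log2 fold change of controls 3 and 4 over controls 1 and 2 for each tested member of the 42 gene lists, with lists ordered by median (black bar), called genes in colour and values past 9 drawn at 9. Complement, plasma proteins, coagulation and apolipoproteins have the lowest medians (-2.48, -2.23, -2.01 and -1.54) and cancer-testis antigens the highest (1.78).

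Genes outside these programs were among the largest differences. Parvin alpha (PARVA), an adaptor of integrins, was at 0 and 0 CPM in controls 1 and 2, against 14.8 and 12.4 CPM in controls 3 and 4, at least 278-fold higher by the same floor, and OCIAD2 was at 0 and 0 against 4.68 and 6.17 CPM, at least 111-fold higher. PARVA stood at 15.9 to 21.8 CPM in the 4 knockout libraries, so controls 1 and 2 were the 2 libraries at 0 among the 8 control and knockout libraries. The caveolar coat protein CAVIN1 (0.161 and 0.131 against 34.5 and 34.4 CPM), the lysosomal enzyme GALC (0.0716 and 0.0292 against 18.4 and 19.3 CPM) and the calcium-binding protein S100A11 (0.734 and 0.57 against 92.9 and 96.1 CPM) were also higher in all 4 knockout libraries than in controls 1 and 2.
The mesenchymal transcription factor TCF21 was at 0.322 and 0.365 against 86.7 and 91.5 CPM, with 3.62 and 4.78 CPM in KO1 and 17.1 and 18.3 CPM in KO2. The growth factor HGF was at 0.0716 and 0.073 against 10.3 and 12.2 CPM, and the cyclic AMP phosphodiesterase PDE7B at 0.0358 and 0.0146 against 26 and 26.3 CPM. Both stood at 0.0233 to 0.288 CPM in the knockout lines, so controls 3 and 4 were the 2 high libraries for HGF and PDE7B among these 8.
The remaining large rises were MID2, B3GNT7, CACNA1C and ERICH5. On the other side, the peptidase DPP4 was at 187 and 187 against 2.78 and 2.66 CPM (log2 -6.10, SE 0.18, adjusted p = 6.47e-08). The splicing regulator MBNL3 was at 75.1 and 70.7 against 2.12 and 1.74 CPM and the reticulum turnover receptor RETREG1 at 61.5 and 60.4 against 1.56 and 1.81 CPM. BASP1 was at 80.9 and 78.9 against 1.73 and 2 CPM. In KO1, at 46.9 and 45.8 CPM, it was nearer controls 1 and 2 but called lower than them (log2 -0.79). The lysophospholipase ENPP2 was at 11 and 10.6 against 0.203 and 0.514 CPM.

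Differences also ran along stretches of chromosomes. Tested genes were put in their GENCODE 29 order and divided into 480 windows of 40 neighbours (19784 genes), a size chosen, like the limit of 0.3, after the data were seen. In 24 windows the median log2 fold change was at least 0.3 in size, 18 higher and 6 lower in controls 3 and 4, with a range from -0.47 to 1.04. Within pairs no window reached that limit: medians ran from -0.12 to 0.19 for control 2 minus control 1 and from -0.26 to 0.25 for control 4 minus control 3.
Of these windows, 20 lay in 5 runs. On chromosome 13, 5 adjoining windows of 200 genes from CDK8 to DPPA3P3 had a median of 0.48, with 82% of genes positive (50.6% of all placed genes) and 62 called higher and 4 lower. Over the whole of chromosome 13, 84 of 344 tested genes were higher (24.4%) and 9 lower (2.62%). On chromosome 3, 80 genes from PTPRG to CPOX had a median of 0.88, with 31 higher and 1 lower.
A pair of runs of opposite sign lay on chromosome 1, 280 genes from TAS1R3 to ZNF436 at 0.38 (59 higher, 2 lower) and 160 genes from TRIT1 to COA7 at -0.4 (2 higher, 29 lower). The fifth was on chromosome 18, 80 genes from ZBTB14 to CABLES1 at 0.48 (21 higher, 5 lower). On chromosome 3, KO1 had a median of 0.84 from controls 1 and 2 and 0.0 from controls 3 and 4. KO2 differed between the 2 windows there, at 0.96 and 0.13 from the pairs in the window that starts at PTPRG and at 0.18 and -0.28 in the window that ends at CPOX, so it was nearer controls 3 and 4 in the first and controls 1 and 2 in the second. On chromosome 13 the KO1 and KO2 lines stood nearer controls 1 and 2 (0.2 and 0.0 against that pair, -0.36 and -0.44 against controls 3 and 4). For the other 3 runs, medians from controls 1 and 2 are given first and from controls 3 and 4 second. From TAS1R3 to ZNF436 they were 0.36 and 0.02 in KO1 and 0.57 and 0.2 in KO2. From TRIT1 to COA7 they were -0.23 and 0.2 in KO1 and -0.03 and 0.34 in KO2. On chromosome 18 they were 0.36 and 0.0 in KO1 and 0.22 and -0.16 in KO2.

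**Figure D4:**
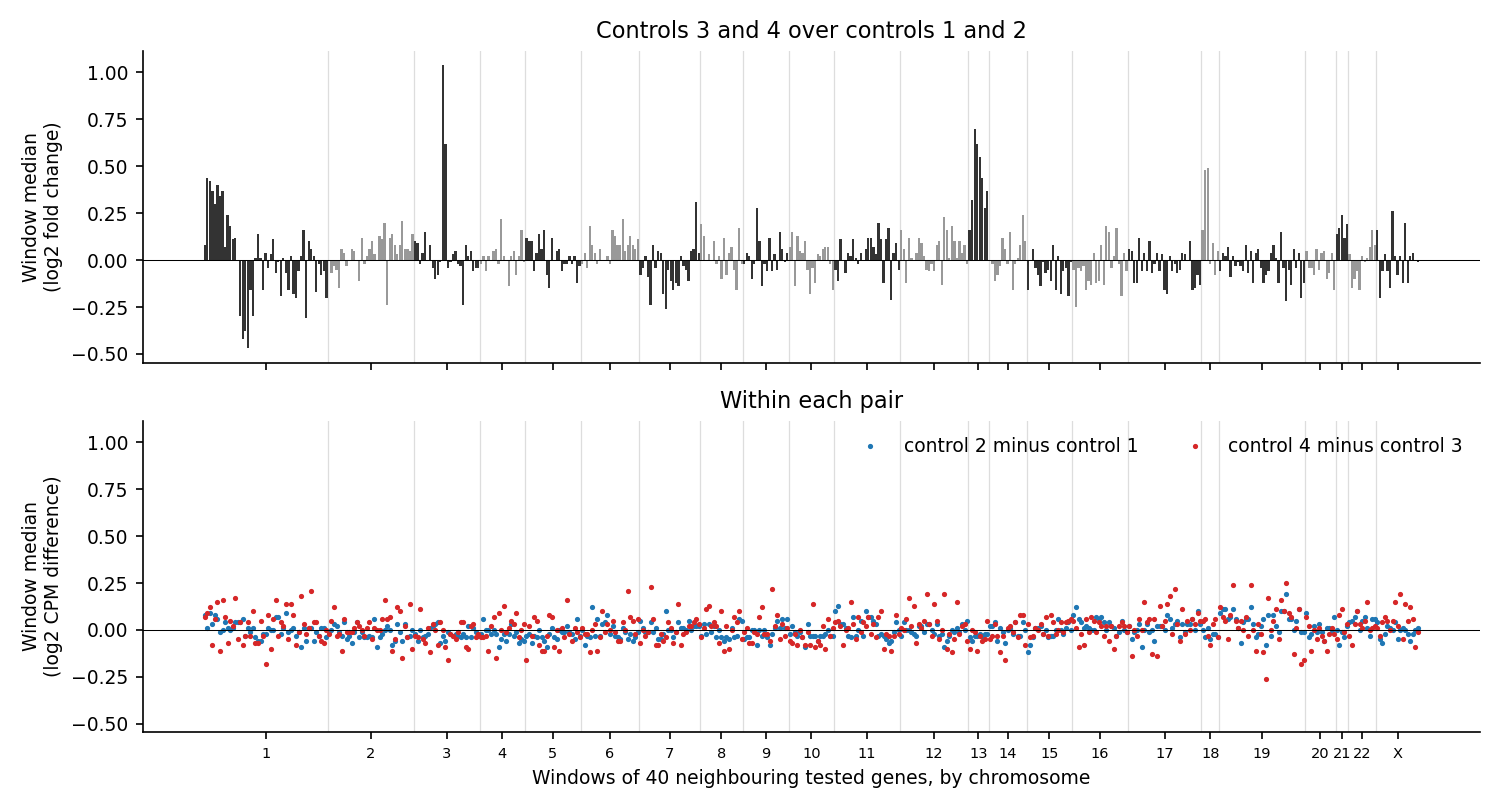
Median log2 difference in windows of 40 neighbouring tested genes along the chromosomes, between the control pairs (bars, top) and within each pair (points, bottom). The stretches on chromosomes 1, 3, 13 and 18 stand out in the top panel, and no window within a pair passes 0.3.

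Where the knockout lines lie depended on the program. The following comparisons share control libraries with each other and with the comparison above. KO1 differed from controls 1 and 2 in 5412 genes (26.3%) and from controls 3 and 4 in 4408 (21.4%). KO2 differed from controls 1 and 2 in 4305 (20.9%) and from controls 3 and 4 in 2778 (13.5%). Leaving out any 1 of the libraries compared gave 2652 to 3579, 2334 to 2566, 1853 to 2972 and 1177 to 1681 calls in the same order. Among the 1386 genes higher in controls 3 and 4, the mean of KO1 was closer to controls 3 and 4 in 56.5% and that of KO2 in 62.1%. Among the 1102 lower genes the shares were 65.1% and 65.3%, and over all genes tested 54.9% and 57.3%. For KO1_RES the shares were 53.1% (higher genes), 67% (lower genes) and 56.1% (all genes), so the higher genes were below the share of all genes. For KO2_RES they were 62%, 65.8% and 55.2%.
Many genes lay outside the interval between the pairs. Of the higher genes, KO1 was beyond controls 1 and 2 in 21.4%, between and nearer to them in 22.2%, between and nearer to controls 3 and 4 in 25.3% and beyond these in 31.2%. For KO2 the same shares were 13.2%, 24.7%, 29.9% and 32.2%.
By program, the plasma proteins had a median log2 difference of -1.11 in KO1 and -1.90 in KO2 from controls 1 and 2, and of 0.12 and 0.13 from controls 3 and 4. The apolipoproteins had -2.10 and -1.55 from the first pair and 0.07 and 0.03 from the second. In both lists the knockout lines lay near controls 3 and 4 in the median, but members departed from it. Of the 29 plasma proteins, 17 and 19 were lower than controls 1 and 2 in KO1 and KO2. Against controls 3 and 4, 4 and 6 of them were lower and 9 and 6 higher. Of the 16 apolipoprotein genes, 11 and 10 were lower than controls 1 and 2 in KO1 and KO2. Against controls 3 and 4, 5 and 2 of these 16 were lower and 2 and 0 higher. Clotting genes in KO2 had medians of -2.51 and -1.01, with 21 of 22 lower than controls 1 and 2, and 10 lower and 3 higher than controls 3 and 4.
Mitochondrially encoded genes had medians of -0.99 and -1.47 from controls 1 and 2 and of -0.01 and -0.49 from controls 3 and 4. The NF-kB list had 1.10 and 0.72 from the first pair and 0.19 and -0.11 from the second, and cholesterol genes -0.72 and -0.57 against -0.16 and 0.01. For these 3 lists the nearer pair was controls 3 and 4. HOX genes had medians of -0.02 and 0.02 from controls 1 and 2 and 0.71 and 0.69 from controls 3 and 4. Their members went both ways: of 34, KO1 had 9 higher and 8 lower than controls 1 and 2 and 14 higher and 0 lower than controls 3 and 4, and KO2 had 4 higher and 6 lower, and 11 higher and 2 lower. Basement membrane genes had medians of -0.27 and -0.24 from the first pair and -0.60 and -0.62 from the second. Of 32, KO1 had 6 higher and 8 lower than controls 1 and 2 and 5 higher and 13 lower than controls 3 and 4, and KO2 had 3 higher and 9 lower, and 0 higher and 12 lower. Cancer-testis antigens had medians of 1.90 and 3.67 from controls 1 and 2 and 0.35 and 0.89 from controls 3 and 4, with 10 and 12 of 17 higher than the first pair and 5 and 7 higher than the second. Biliary genes had medians of 0.34 and 0.00 from controls 1 and 2 and -0.33 and -0.24 from controls 3 and 4.

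**Figure D5:**
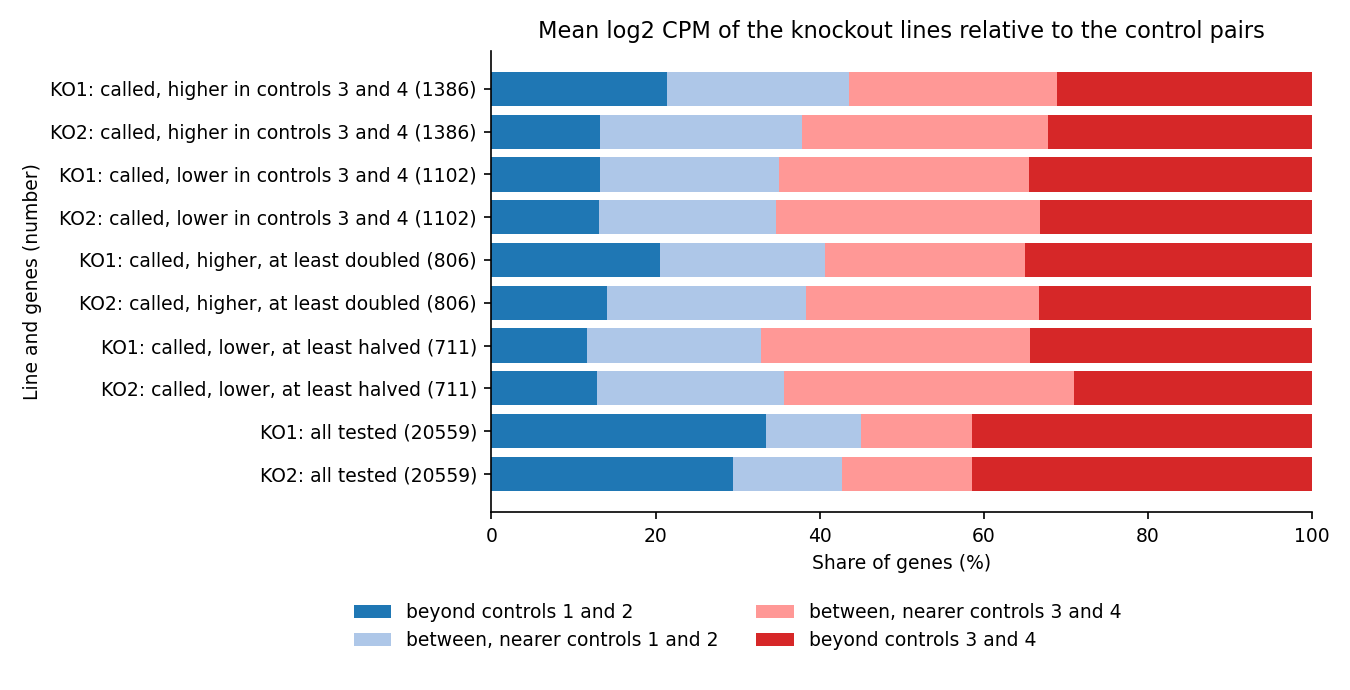
Share of genes (%) by where the mean log2 CPM of KO1 or KO2 lies relative to the control pairs, for called genes by direction, for those with a log2 change of at least 1, and for all genes tested (number in brackets). KO1 and KO2 are closer to controls 3 and 4 in 65.1% and 65.3% of the lower genes, against 54.9% and 57.3% of all genes.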

How the data were processed

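Stranded mRNA libraries were read as raw counts per gene that the authors deposited for each library. Reads were aligned with STAR 2.6.0b to GRCh37, per the submitters' processing notes; the annotation and filters are not given in the sources used here. Column 4 was used, since its total was 19.8 to 21.1 times that of the other strand. The 4 lines of unassigned reads were left out. Of 57820 identifiers, 39538 took a symbol from a table of gene names and 12800 from GENCODE 29; 4.84% of counts had none.

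Samples were grouped by title. The genotype field disagrees with the title for KO1 2, KO2 2, KO1_RES 1 and KO2_RES 1, none of them a control. edgeR 4.0.16 in R 4.3.3 fitted all 12 libraries in 6 groups with quasi-likelihood tests after filterByExpr (20559 genes, common biological variation 18%, 6 residual degrees of freedom), with Benjamini-Hochberg adjustment over all genes. CPM values were computed from counts with TMM factors; 3 counts, taken as the floor, are 0.0407 to 0.0848 CPM and cover counting error only. The procedure was tested on simulated data.

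The control pairs, the 42 gene lists and the tests were chosen with earlier results of these data known. Named genes were the 14 largest rises and 14 largest falls among called genes with at least 5 CPM in the higher pair and pairs that did not overlap, up to 4 called members per list by adjusted p, and ALB, KRT19 and HKDC1. Other named genes were chosen after their values were seen. Alternatives were DESeq2 1.42.0, RLE scaling, unstranded counts, no filter, a log2 threshold of 1, fewer libraries, each library left out and a replicate block. Promoters came from RefSeq. Some items are not reported here.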

Additional observations from a re-analysis of the deposited data

How the results depend on the processing

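The difference between the control pairs stayed within 1.5 times its 2488 calls with RLE scaling (2449), DESeq2 (3161), no filter (3352), unstranded counts (2306) and without the rescue libraries (3504). It was 626 with a log2 threshold of 1, 4465 with the 4 controls alone, where 2 residual degrees of freedom remain, and 1026 to 1326 without 1 control. A lone library left in a pair is assumed to vary like the other groups. With a threshold of 1, KO1 against controls 1 and 2 gave 1203 calls, KO1 against controls 3 and 4 814, KO2 against controls 1 and 2 854 and KO2 against controls 3 and 4 449. Leaving out 1 library gave 2652 to 3579, 2334 to 2566, 1853 to 2972 and 1177 to 1681 calls in the same order.

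Control pairs 1, 2 and 3, 4 share no replicate number, so no paired analysis was possible for them. Against controls 1 and 2, a replicate block gave 8353 calls for KO1 and 7206 for KO2, against 6733 and 5491 for the same 6 libraries without it (added after the data were seen). Deviations of same-numbered libraries correlated at 0.0254 (controls 1 and 2 with KO1), 0.158 (with KO2) and 0.205 (KO1 with KO2). Since 1 of the 3 is under 0.1 the numbers were not taken to pair the libraries, although the block raised both counts. This check left out the rescues. By genes differing by at least 1 in log2 CPM, KO2 1 was nearer KO2_RES 1 (1076) than KO2 2 (1648). KO2_RES 2 was nearer KO2 2 (1529) than KO2_RES 1 (3121). In line 1, KO1 1 was nearer KO1 2 (1592) than KO1_RES 1 (2445). This spread enters the shared estimate.

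Of 146 named genes, 0 of those called changed direction under any alternative run. HKDC1, which was not called, ran from a log2 fold change of -0.33 to 0.22. All 146 kept their side of the threshold with RLE scaling, DESeq2, the 4 controls alone and without the rescue libraries. The call was lost by 2 without a filter (MANF, TALDO1), 5 with unstranded counts (CEBPA, COL4A4, LAPTM5, ENO2, TYMS), 60 with a log2 threshold of 1, and 33, 35, 26 and 28 without control 1, 2, 3 or 4. The median of each of the 42 lists was compared with the standard deviation of its library medians within pairs. It moved by at least that much in 0 lists with RLE scaling, 1 with DESeq2 and 3 with unstranded counts. Without a filter 6 lists moved, and with the 4 controls alone 7. Without a filter, the median of the antigen presentation list changed sign. The cause was not tested. Intervals cover neither culture nor library preparation, since no label names separate cultures.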
